A study of Mus musculus with 12 samples.

Results

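Peroxisome genes were followed in mammary tumors and benign mammary tissue of HER2 transgenic mice. The members are 35 named genes, found by symbol among the 16411 genes of the count table. Of these, 12 are biogenesis genes (Pex genes, whose proteins build and divide the organelle) and 23 encode peroxisomal enzymes, transporters and other membrane proteins. All 35 had a row in the table, and 34 passed the filter on low counts. Far2 did not pass and is described by its counts.

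RNA from 6 tumors and 6 benign samples was enriched for poly A transcripts and sequenced. All samples came from female FVB mice heterozygous for MMTV/neu ndl-YD5, a transgene in which the mouse mammary tumor virus promoter drives an activated Neu (HER2) receptor in mammary epithelium. The benign samples were taken where no tumor was visible, far from the tumor site, so both groups carried the transgene, and no animal was treated. Tumors and benign samples came from different mice, whose individual ages were not given in the sources used here.

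Peroxisomes are organelles bound by a single membrane that shorten very long and branched fatty acids, start the synthesis of ether lipids, and break down the hydrogen peroxide their oxidases release. Their enzymes are made in the cytosol and carried in by receptors that dock at the membrane, release their cargo and are pulled out again for another round. Fat cells and liver cells are rich in peroxisomes, and several peroxisomal genes are known targets of the PPAR nuclear receptors.

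Levels are CPM (a gene's counts per 1000000 counts of its library), after scaling of each library by TMM (trimmed mean of M-values), given as mean ± SD with n = 6 in each group. A gene was called where edgeR's quasi-likelihood test over 13191 genes gave a Benjamini-Hochberg adjusted p under 0.1, and fold changes are log2 values of tumor over benign with their standard errors (SE). Total counts ranged from 5240853 to 8588567 per library, and at the mean library size 3 counts correspond to 0.411 CPM. The benign samples were mixed tissue. The summed level of 8 white adipocyte markers was 7981 to 21015 CPM in benign samples and 12.2 to 119 CPM in tumors, all 8 markers being called lower. The 8 skeletal muscle markers summed to 49304, 33399 and 83985 CPM in benign samples 3, 4 and 6 and to 14.8 to 343 CPM in the other benign samples, against 0.843 to 127 CPM in tumors. Brown adipocyte markers (6 genes) summed to 3154 CPM in benign sample 4 and 903 CPM in benign sample 6, against 41.1 to 232 CPM in the other benign samples and 12.3 to 36.4 CPM in tumors, where Ucp1 had 0 counts in 5 of 6 libraries. The 8 epithelial markers summed to 945 to 2457 CPM in benign samples and 2585 to 4313 CPM in tumors. Of these, 5 were called higher, 2 were not called and Krt19 was called lower (356 ± 149 CPM in benign samples, 13.3 ± 10.5 CPM in tumors). For benign samples and then tumors, 5 endothelial markers summed to 549 to 1013 and 74.1 to 89.9 CPM, all 5 being called lower. In the same order, 5 macrophage markers summed to 169 to 272 and 89.9 to 169 CPM, of which 2 were called lower, 1 higher and 2 were not called. The 5 proliferation markers summed to 14 to 500 and 353 to 536 CPM, and none was called. The 5 lymphocyte markers stood at 524 CPM in benign sample 1 and at 0.128 to 7.91 CPM elsewhere. In such bulk samples, fewer cells of a type and less RNA per cell cannot be told apart, and the part of these tissue differences in the results was not tested except where a value without those libraries is given. Tumor 5 was the highest or lowest tumor for 50% of all genes tested and for 17 of the 34 members tested.

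Of the 34 members tested, 15 were lower in tumors, 8 were higher and 11 were not called. Over all genes tested, 62.9% were called, 34.8% lower and 28.1% higher, so the members' 67.6% lies close to the background. The biogenesis genes and the other members stood on either side of it. Of the 12 biogenesis genes, 3 were lower and 2 were higher (41.7% called), with a median log2 fold change of -0.21. Of the 22 other members tested, 12 were lower and 6 were higher (81.8% called), with a median of -0.42, where the median over all genes was -0.062. The members' fold changes ran from -7.22 for Abcd2 to 5.35 for Acox2. Every tumor lay below every benign sample for 11 of the 34 members, against 21.2% of all genes tested, and above every benign sample for 4 members, against 14.7%. These shares describe the groups of genes, and the difference between biogenesis genes and the other members was not tested.

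**Figure D1:**
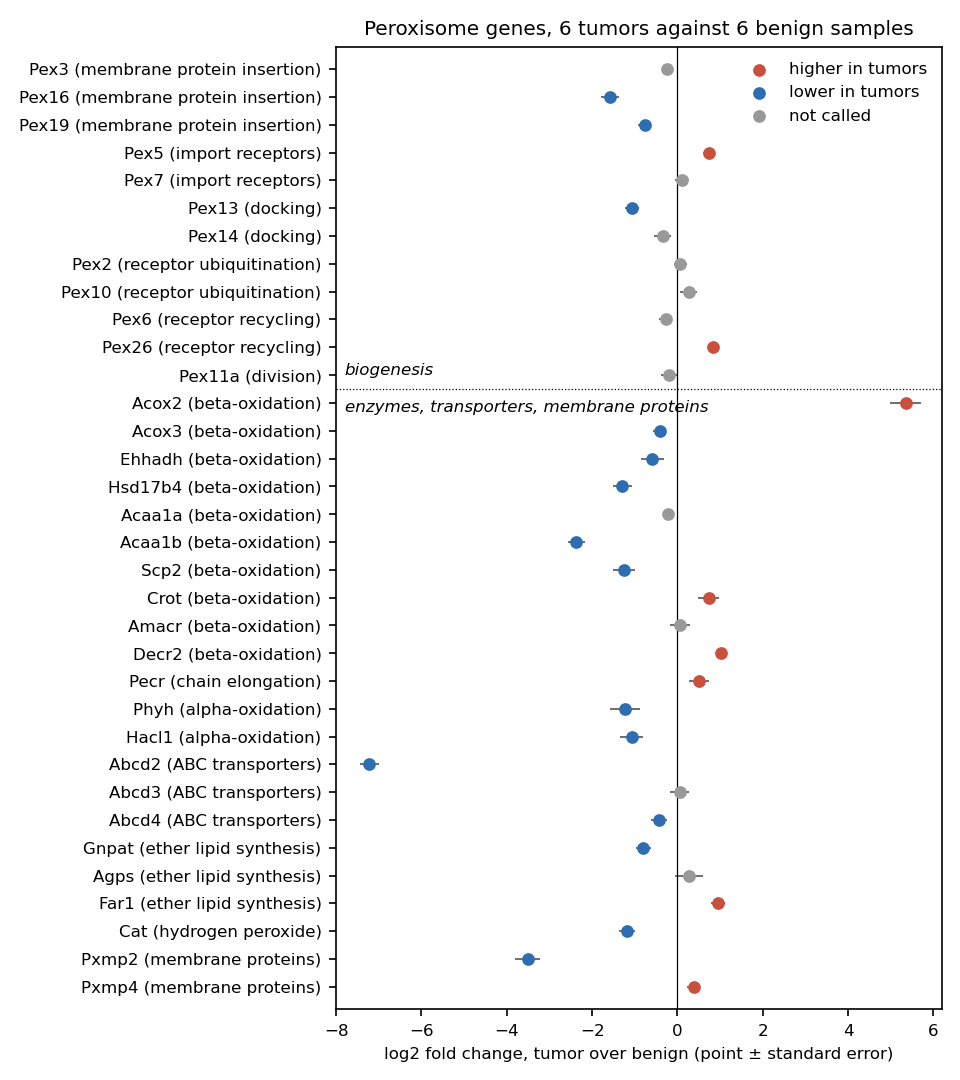
Log2 fold change of tumor over benign for the 34 members tested (x axis; point ± SE from edgeR, 6 samples a group), by gene and role (y axis) and colored by call at adjusted p under 0.1. The biogenesis genes above the dotted line lie between -1.58 and 0.84, and the other members reach from -7.22 to 5.35.

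Among the genes that insert membrane proteins, Pex16 and Pex19 fell in tumors. Pex16, which brings membrane proteins to newly forming peroxisomes, lies on chr2:92374676-92381217 (mm10, plus strand). Its level ranged from 48.7 to 126 CPM in benign tissue (median 62.2) and from 20.1 to 28.2 CPM in tumors (median 24.9). No tumor reached the lowest benign sample, and benign sample 4 was the highest. The log2 fold change was -1.58 (SE 0.21, edgeR adjusted p = 3.5e-05), or 72.5 ± 27.9 CPM against 24.2 ± 2.98 CPM. Pex16 shares 127 exon bases with Large2 on the opposite strand, and reads from there could be divided between the genes if the counting ignored strand. Pex19, the cytosolic chaperone that carries membrane proteins to the organelle (chr1:172126755-172136493, plus strand), ranged from 124 to 224 CPM in benign tissue (median 139) and from 82.9 to 106 CPM in tumors (median 93.8). The groups again did not overlap, and the log2 fold change was -0.77 (SE 0.16, edgeR adjusted p = 0.0012). Pex3, the membrane anchor to which Pex19 delivers its cargo, was not called, at 36.8 ± 7.63 CPM in the benign and 31.1 ± 2.29 CPM in the tumor group (log2 fold change -0.24, edgeR adjusted p = 0.14). With the muscle marker score and Ucp1 as covariates the log2 fold change of Pex3 was 0.042, also not called (edgeR adjusted p = 0.84).

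The import receptors and the docking complex did not move together. Pex5 rose in tumors. It is the receptor for most matrix enzymes, binding the signal at their carboxy terminus, and lies on chr6:124396816-124415067 (minus strand). Its level ranged from 80.6 to 123 CPM in benign tissue (median 95.3) and from 123 to 201 CPM in tumors (median 162). The lowest tumor, tumor 2, lay level with benign sample 4, and the other 5 tumors lay above every benign sample (log2 fold change 0.73, SE 0.14, edgeR adjusted p = 0.00064). Pex7, the receptor for the amino-terminal signal that Phyh, Agps and the thiolases Acaa1a and Acaa1b carry, was not called, at 26.4 ± 7.43 CPM and 28.6 ± 3.23 CPM. Pex7 was called higher in tumors without benign samples 3, 4 and 6 (edgeR adjusted p = 0.021). Its log2 fold change was then 0.48 in place of 0.11. Leaving out only benign samples 4 and 6 gave 0.43 (edgeR adjusted p = 0.016). Pex13, which with Pex14 forms the docking site for loaded receptors, fell (chr11:23646479-23665959, minus strand). It ranged from 69.8 to 117 CPM in benign tissue (median 72.7) and from 29.5 to 48.7 CPM in tumors (median 39.4). No tumor reached a benign sample, and the log2 fold change was -1.06 (SE 0.17, edgeR adjusted p = 0.00013). Pex14 was not called. It ranged from 46.7 to 92.5 CPM in benign tissue (median 55.4) and from 28.4 to 56 CPM in tumors (median 51), with the lowest value in tumor 5 (log2 fold change -0.35, edgeR adjusted p = 0.14).

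Of the genes that return receptors to the cytosol, 1 of 4 was called, where 62.9% of all genes tested were called. Pex26, which anchors the Pex6 motor at the membrane, rose in tumors (chr6:121183667-121198837, plus strand). It ranged from 23.7 to 31.5 CPM in benign tissue (median 28) and from 40.9 to 62.3 CPM in tumors (median 48.6). Every tumor lay above every benign sample, and the log2 fold change was 0.84 (SE 0.12, edgeR adjusted p = 5.7e-05). Pex6, the motor ATPase, had 83.5 ± 22.1 CPM in the benign and 68.8 ± 7.93 CPM in the tumor group and was not called (log2 fold change -0.28, edgeR adjusted p = 0.15), although it was called lower when benign sample 3 or 5 was left out. The ubiquitin ligases Pex2 and Pex10, which mark receptors for recycling, had log2 fold changes of 0.068 and 0.26 and were not called (edgeR adjusted p = 0.72 and 0.28). Pex10 was called higher without tumor 5, at a log2 fold change of 0.46. Pex11a, which elongates the membrane before division, ranged from 32.3 to 67 CPM in benign tissue and from 29.6 to 55.4 CPM in tumors (log2 fold change -0.19, edgeR adjusted p = 0.46). The sign of Pex11a turned to 0.089 without benign samples 3, 4 and 6.

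Per kilobase of exon, the order of levels among biogenesis genes also differed between the groups. In benign tissue Pex19 (42 CPM per kb) and Pex16 (40.8 CPM per kb) had the highest levels, with Pex5 at 24.7 CPM per kb. In tumors Pex5 led at 41 CPM per kb, ahead of Pex19 at 24.6 CPM per kb and Pex2 at 20.4 CPM per kb, and Pex16 stood at 13.6 CPM per kb. Pex7 had the lowest level per length in both groups, at 2.19 and 2.37 CPM per kb. Lengths are the union of annotated exons, so a gene with long, rarely used exons reads low on this scale.

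**Figure D2:**
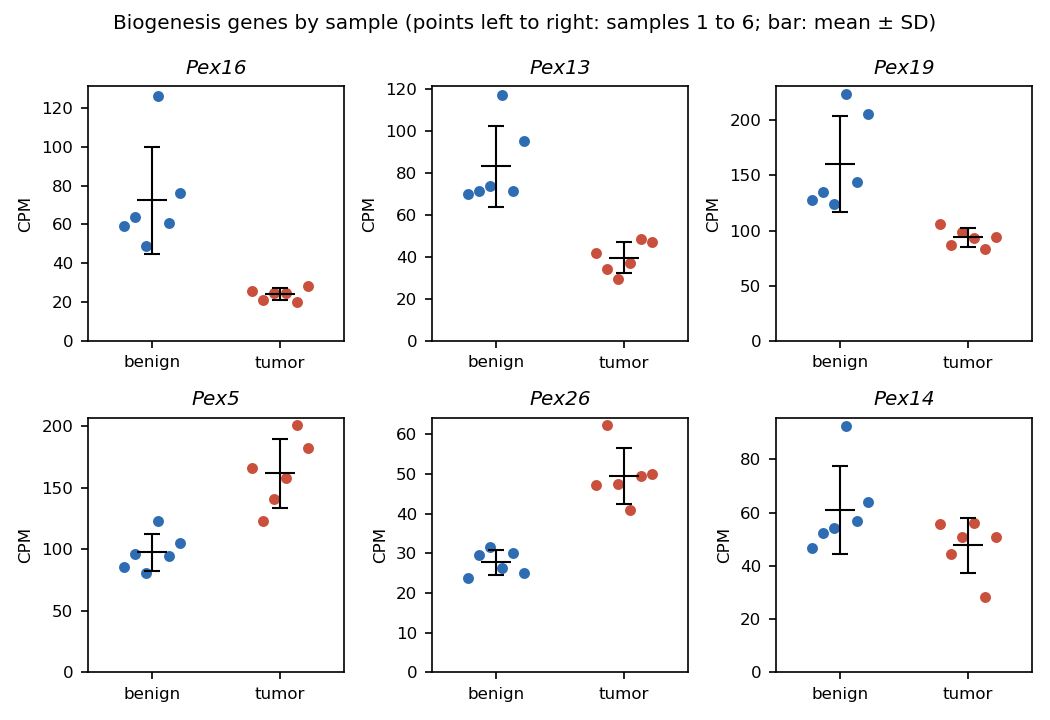
Level of 6 biogenesis genes in each sample (y axis, CPM; points are samples 1 to 6 from left to right within a group, bars the mean ± SD). Pex16, Pex13 and Pex19 lie lower in every tumor than in any benign sample, Pex26 lies higher in every tumor, and tumor 5 is the lowest point for Pex14.

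The beta-oxidation genes split between higher and lower. Of the 10 genes, 5 were lower and 3 were higher (50% and 30%, against 34.8% and 28.1% of all genes tested). The widest rise among all members was that of Acox2, an oxidase that opens the breakdown of branched fatty acids and of bile acid precursors, on chr14:8225511-8259353 (minus strand). Its level ranged from 0.791 to 2.75 CPM in benign tissue (median 1.57, from 6 to 22 counts a library) and from 44.6 to 129 CPM in tumors (median 60.2). All tumors lay far above all benign samples, and tumor 5, at 129 CPM, was separated from the next tumor at 63.8 CPM. The mean was 42 times higher in tumors (log2 fold change 5.35, SE 0.36, edgeR adjusted p = 8.5e-08), and without tumor 5 the log2 fold change was 5.14. Acox3, the other branched-chain oxidase in the list, ranged from 46.2 to 75.4 CPM in benign tissue and from 40.2 to 59 CPM in tumors. It was called lower (log2 fold change -0.42, SE 0.16, edgeR adjusted p = 0.036), and the call was lost without benign sample 1 (-0.29) or without tumor 2, 3 or 6 (-0.32, -0.31 and -0.31).

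The bifunctional enzymes carry out the middle steps of the cycle. Hsd17b4, which takes branched and very long substrates, ranged from 155 to 328 CPM in benign tissue (median 192) and from 67.5 to 140 CPM in tumors (median 81.2). It fell without overlap between the groups (log2 fold change -1.29, SE 0.22, edgeR adjusted p = 0.00029). Ehhadh, the other bifunctional enzyme, ranged from 28.2 to 81.8 CPM in benign tissue (median 32.8) and from 20.6 to 38.3 CPM in tumors (median 27). Its single highest value was benign sample 4. The call of Ehhadh as lower (log2 fold change -0.59, SE 0.27, edgeR adjusted p = 0.076) was lost in 8 of 12 fits that left out 1 sample (benign 2, 4 or 6, or tumor 2, 3, 4, 5 or 6), and without benign sample 4 the log2 fold change was -0.29.

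The thiolases close each round of beta-oxidation. Acaa1b fell in tumors and Acaa1a was not called. Acaa1b (chr9:119148023-119157093, minus strand) ranged from 32.8 to 83.4 CPM in benign tissue (median 50.4) and from 9.49 to 11.7 CPM in tumors (median 10.5). The groups lay well apart, and the tumors were narrowly spread (log2 fold change -2.37, SE 0.20, edgeR adjusted p = 6.5e-07). Acaa1a (chr9:119339676-119350299, plus strand) ranged from 75.6 to 132 CPM in benign tissue (median 102) and from 78.8 to 98.7 CPM in tumors (median 91.4), and every tumor lay within the benign range (log2 fold change -0.22, edgeR adjusted p = 0.18). It was called lower without benign sample 3, at -0.29, and stood at 0.0032 without benign samples 4 and 6. Of the stretches of 31 bases in Acaa1b transcripts, 40% also occur in Acaa1a, so the division of reads between these near copies is uncertain. Acaa1b also shares 224 exon bases with Dlec1 and Acaa1a 290 with Myd88, both on the opposite strand.

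The promoters of the thiolase genes are shown because the copies, which lie on the same chromosome, differed in tumors. RefSeq start sites on GRCm38.p6 were used, with 250 bases before and 50 bases after the start, read on the strand of the gene, at chr9:119341044-119341343 (plus strand) for Acaa1a and chr9:119157044-119157343 (minus strand) for Acaa1b. Capitals mark every CG.
Acaa1a: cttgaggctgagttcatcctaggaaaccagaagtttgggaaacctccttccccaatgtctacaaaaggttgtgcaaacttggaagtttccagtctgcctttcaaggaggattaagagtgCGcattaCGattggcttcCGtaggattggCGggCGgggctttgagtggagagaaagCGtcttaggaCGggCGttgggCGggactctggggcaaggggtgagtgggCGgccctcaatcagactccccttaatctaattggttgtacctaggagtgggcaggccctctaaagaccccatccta
Acaa1b: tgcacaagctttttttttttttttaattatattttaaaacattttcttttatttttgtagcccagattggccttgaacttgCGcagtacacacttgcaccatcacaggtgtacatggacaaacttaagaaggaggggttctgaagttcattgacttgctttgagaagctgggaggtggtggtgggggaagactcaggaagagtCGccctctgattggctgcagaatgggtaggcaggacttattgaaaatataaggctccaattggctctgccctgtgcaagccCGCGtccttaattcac
The Acaa1a promoter holds 10 CG and 53.3% G or C, and the Acaa1b promoter holds 4 CG and 43.7% G or C. The median over promoters of the genes tested was 20 CG and 60.7% G or C, and that over the members' promoters was 16 CG and 58.3%.

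Scp2 encodes a further thiolase and, from a second start, a sterol carrier protein. It ranged from 355 to 789 CPM in benign tissue (median 404) and from 109 to 289 CPM in tumors (median 221). Tumor 5 was the lowest, and no tumor reached a benign sample (log2 fold change -1.25, SE 0.26, edgeR adjusted p = 0.0012). Scp2 shares 33.4% of its 31-base stretches with the copy Scp2-ps2. Crot, which passes shortened chains to carnitine for export, rose from 49.9 ± 10.5 CPM to 82.6 ± 36.5 CPM, with 4 of 6 tumors above every benign sample and tumor 5 at 152 CPM (log2 fold change 0.73, SE 0.25, edgeR adjusted p = 0.023; 0.53 without tumor 5, still called). Decr2, an auxiliary reductase needed for unsaturated chains (chr17:26081208-26090337, minus strand), ranged from 32.6 to 50.1 CPM in benign tissue (median 37.9) and from 65.1 to 99 CPM in tumors (median 78.4). Every tumor lay above every benign sample (log2 fold change 1.03, SE 0.13, edgeR adjusted p = 2.6e-05). Amacr, the racemase that readies branched chains for oxidation, had 20 ± 8.81 CPM and 20.7 ± 2.22 CPM and was not called (edgeR adjusted p = 0.86), though leaving out benign samples 3, 4 and 6 gave a log2 fold change of 0.65 (edgeR adjusted p = 0.0096). Pecr, a reductase of fatty acid chain elongation, was called higher at 13.2 ± 3.59 CPM against 18.7 ± 5.2 CPM (log2 fold change 0.50, edgeR adjusted p = 0.084), and the call was lost without benign sample 1, 3, 4 or 5 or tumor 1, with log2 fold changes no lower than 0.43.

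Both alpha-oxidation genes, which remove the first carbon of methyl-branched chains, were called lower in tumors. The share called lower over all genes tested was 34.8%. With the muscle marker score and Ucp1 as covariates, neither gene was called. Phyh, the hydroxylase of phytanic acid, ranged from 110 to 453 CPM in benign tissue (median 157) and from 67.8 to 150 CPM in tumors (median 84.8). The groups overlapped, with benign sample 4 at 453 CPM and benign sample 6 at 320 CPM far above the other benign samples (log2 fold change -1.23, SE 0.35, edgeR adjusted p = 0.0092). Without benign samples 3, 4 and 6 the call of Phyh was lost, at a log2 fold change of -0.46 (edgeR adjusted p = 0.17). Hacl1, the lyase of the next step, fell from 32.5 ± 16.2 CPM to 15.5 ± 2.3 CPM without overlap (log2 fold change -1.07, SE 0.27, edgeR adjusted p = 0.0047). It was still called without benign samples 3, 4 and 6 (-0.63), and 31.2% of its 31-base stretches occur in other genes, most of them in Gm49387.

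The deepest fall among the members was that of Abcd2, a transporter of very long chain fatty acyl-CoA into peroxisomes (chr15:91145871-91191799, minus strand). It ranged from 236 to 394 CPM in benign tissue (median 297) and from 1.1 to 3.01 CPM in tumors (median 1.99). The tumor libraries held from 8 to 25 counts of Abcd2, and the benign libraries from 1273 to 2528. The benign mean was 152 times the tumor mean (log2 fold change -7.22, SE 0.23, edgeR adjusted p = 6.9e-10), and without benign samples 3, 4 and 6 the log2 fold change was -7.04. Abcd3, the transporter of branched-chain acyl-CoA, was not called, at 149 ± 63.1 CPM in the benign and 154 ± 20.2 CPM in the tumor group (log2 fold change 0.048, edgeR adjusted p = 0.87). Benign sample 4, at 270 CPM, was its highest library, and without that sample Abcd3 was called higher in tumors (log2 fold change 0.30, edgeR adjusted p = 0.086). Abcd4, a relative that resides in lysosomes and moves cobalamin, had 22.8 ± 5.24 CPM and 16.9 ± 3.21 CPM. It was called lower (log2 fold change -0.43, edgeR adjusted p = 0.06), a call lost in 8 of 12 fits without 1 sample (benign 1, 4 or 6, or tumor 1, 2, 3, 4 or 5).

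Ether lipid synthesis begins in peroxisomes with Gnpat and Agps, while Far1 and Far2 supply the fatty alcohol. Gnpat, the acyltransferase of the first step, ranged from 162 to 287 CPM in benign tissue (median 189) and from 107 to 140 CPM in tumors (median 119). It fell without overlap (log2 fold change -0.80, SE 0.17, edgeR adjusted p = 0.0014). Agps, the enzyme of the second step, was not called. It ranged from 60 to 110 CPM in benign tissue (median 75.1) and from 50.3 to 216 CPM in tumors (median 71.4), where the highest value was tumor 5 (log2 fold change 0.27, edgeR adjusted p = 0.5; -0.11 without tumor 5). Far1 rose, ranging from 61.4 to 90.2 CPM in benign tissue (median 78) and from 97.3 to 202 CPM in tumors (median 146). Every tumor lay above every benign sample (log2 fold change 0.95, SE 0.17, edgeR adjusted p = 0.00043). Far2, which did not pass the filter, had from 3 to 52 counts in benign libraries and at most 4 counts in tumors, with 0 counts in 4 of 6 tumors. Its level was 2.16 ± 2.27 CPM and 0.102 ± 0.193 CPM. After scaling every tumor lay below every benign sample, but barely, with tumor 3 at 0.481 CPM and benign sample 6 at 0.533 CPM. In raw counts the groups overlapped, as tumor 3 held 4 counts and benign sample 6 held 3. An exact permutation test of the group means in CPM (two-sided, n = 6 and 6) gave p = 0.00216. This is the smallest p the design allows, and full separation gives it by itself. Far2 shares 837 exon bases with Ergic2 on the opposite strand.

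Catalase (Cat), the enzyme that breaks down hydrogen peroxide, fell in tumors. It lies on chr2:103453849-103485160 (minus strand) and ranged from 357 to 731 CPM in benign tissue (median 415) and from 170 to 257 CPM in tumors (median 215). No tumor reached a benign sample, and benign samples 4 and 6 were the highest (log2 fold change -1.19, SE 0.19, edgeR adjusted p = 0.00019; -0.82 without benign samples 3, 4 and 6, still called). Pxmp2, a pore-forming protein of the peroxisomal membrane (chr5:110274282-110286186, minus strand), ranged from 23.1 to 61.2 CPM in benign tissue (median 28.9) and from 2.61 to 4.09 CPM in tumors (median 2.94). The groups lay far apart, the benign mean being 11.4 times the tumor mean (log2 fold change -3.51, SE 0.29, edgeR adjusted p = 4.7e-07). Pxmp4, another peroxisomal membrane protein, was called higher, at 75 ± 13.8 CPM against 97.3 ± 19.2 CPM, with 2 of 6 tumors above every benign sample (log2 fold change 0.38, SE 0.15, edgeR adjusted p = 0.054). This call was lost without benign sample 3, at 0.31.

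**Figure D3:**
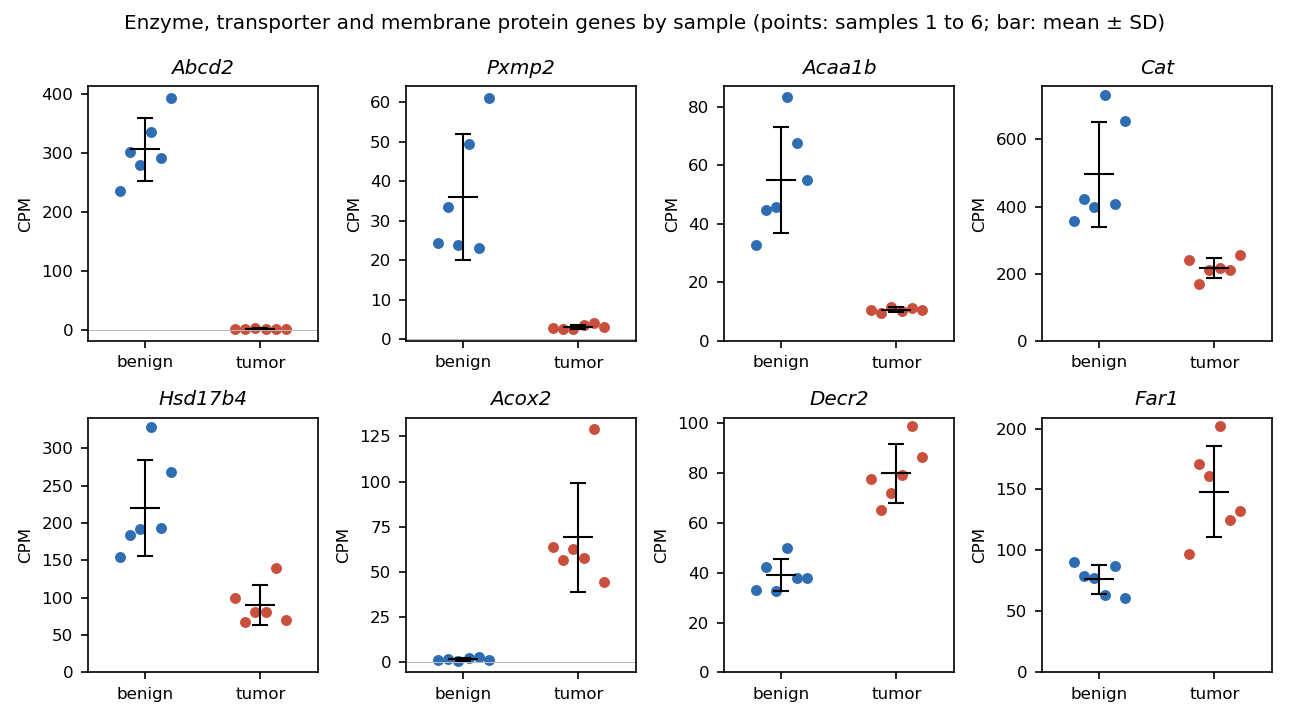
Level of 8 enzyme, transporter and membrane protein genes in each sample (y axis, CPM; points are samples 1 to 6 from left to right within a group, bars the mean ± SD). Abcd2, Pxmp2, Acaa1b, Cat and Hsd17b4 lie lower in every tumor than in any benign sample, and Acox2, Decr2 and Far1 lie higher in every tumor, with tumor 5 highest for Acox2.

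The promoters of Cat and Acox2 are shown because they were the members' promoters that held a close match to the element PPAR receptors bind, a direct repeat of AGGTCA with 1 base between the copies. A window with up to 2 mismatches was sought on both strands of the RefSeq promoters (GRCm38.p6), of which 33 belonged to 28 of the 35 members. Pex19, Pex2, Hsd17b4, Amacr, Abcd2, Abcd4 and Pxmp2 had no entry. The sequences lie at chr2:103485104-103485403 for Cat and chr14:8258790-8259089 for Acox2, both on the minus strand, and capitals mark the matching window.
Cat: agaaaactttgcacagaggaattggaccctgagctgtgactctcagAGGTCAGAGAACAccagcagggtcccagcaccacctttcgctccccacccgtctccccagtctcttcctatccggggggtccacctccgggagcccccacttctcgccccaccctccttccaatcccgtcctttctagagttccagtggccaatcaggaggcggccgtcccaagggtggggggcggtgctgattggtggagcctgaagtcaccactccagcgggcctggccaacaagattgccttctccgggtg
Acox2: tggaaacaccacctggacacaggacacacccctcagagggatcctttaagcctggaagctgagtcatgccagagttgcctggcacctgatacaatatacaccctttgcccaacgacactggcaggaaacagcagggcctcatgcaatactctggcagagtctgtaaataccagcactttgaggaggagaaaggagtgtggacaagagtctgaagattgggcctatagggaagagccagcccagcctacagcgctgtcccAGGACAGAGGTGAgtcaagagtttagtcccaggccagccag
The window was centred 198 bases before the start of Cat and 15 bases after this start of Acox2, and at the other annotated Acox2 start the best window had 3 mismatches. Such a window occurred in 2 of 33 members' promoters (6.06%), in 2.79% of promoters of genes tested and in 3.86% of all 32851 promoters. The single AGGTCA, which the repeat contains, occurred on either strand in 3 of 33 members' promoters (those of Cat, Phyh and Scp2; 9.09%), in 12.4% of promoters of genes tested and in 16.3% of all promoters. None of the 13 promoters of biogenesis genes held either. Of the genes with a window, Cat was lower and Acox2 higher in tumors. A match of letters does not show that a factor binds there.

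Per kilobase of exon, the most abundant members in benign tissue were Cat (190 CPM per kb), Scp2 (146 CPM per kb) and Phyh (118 CPM per kb). The same 3 genes led in tumors, at 83.4, 61.2 and 50.5 CPM per kb. Abcd2 moved from 51.5 CPM per kb in benign tissue to 0.339 CPM per kb in tumors, where only Far2 had a lower level per length (0.0139 CPM per kb). Acox2 moved from 0.445 to 18.7 CPM per kb, and Decr2 from 14.7 to 30.1 CPM per kb.

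Ratios of 10 pairs of members within each library, from which library scaling cancels, were compared by an exact permutation test over all regroupings of the samples (two-sided, adjusted over the 10 pairs and read at 0.05). Where the genes of a pair differ in length, the group difference rather than the ratio itself is of interest. The log2 ratio of Acaa1a to Acaa1b was 0.96 ± 0.43 in benign tissue and 3.04 ± 0.17 in tumors (exact adjusted p = 0.00433). That of Acox2 to Acox3 moved from -5.06 ± 0.73 to 0.53 ± 0.54, and that of Abcd2 to Abcd3 from 1.11 ± 0.40 to -6.11 ± 0.52 (exact adjusted p = 0.00433 for each). Pxmp2 to Pxmp4 moved from -1.14 ± 0.42 to -4.83 ± 0.28 with the same p, and none of these 4 ratios overlapped between the groups. An adjusted p of 0.00433 stands for an exact permutation p of 0.00216, the smallest the design allows, which full separation gives by itself. Acaa1b, Acox2, Abcd2 and Pxmp2 each separated the groups on their own, so these tests are not further evidence for them.

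The remaining ratios moved less or rested on few counts. Far1 to Far2 differed by 3.30 on the log2 scale (exact adjusted p = 0.00433), a size that depends on the 2 counts added to each gene because Far2 was at 0 in 4 tumors. It was 4.65 with 0.5 added counts. Ehhadh to Hsd17b4 moved from -2.46 ± 0.28 to -1.67 ± 0.34 (exact adjusted p = 0.00722), so that Ehhadh was less reduced than Hsd17b4. Cat to Acox3, the peroxide-consuming enzyme over a peroxide-forming one, moved from 3.0 ± 0.39 to 2.26 ± 0.24 (exact adjusted p = 0.0124). Pex5 to Pex7, the ratio of the import receptors, moved from 1.90 ± 0.24 to 2.48 ± 0.40 (exact adjusted p = 0.0216). Without benign samples 3, 4 and 6 neither of the last 2 ratios passed, with 3 benign samples left. The difference for Cat to Acox3 was then -0.55 in place of -0.74 (exact adjusted p = 0.085), and that for Pex5 to Pex7 was 0.36 in place of 0.58 (exact adjusted p = 0.238). Gnpat to Agps missed the threshold, at 1.45 ± 0.44 against 0.58 ± 0.90 (difference -0.87, exact adjusted p = 0.0505). The difference was -0.55 without tumor 5 (exact adjusted p = 0.101) and -0.56 without benign samples 3, 4 and 6 (exact adjusted p = 0.397), and the ratio passed without tumor 1 (-1.01, exact adjusted p = 0.0298) or tumor 6 (-1.05, exact adjusted p = 0.0135). Pex11a to Pex14 was -0.48 ± 0.20 against -0.30 ± 0.44 (exact adjusted p = 0.403).

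**Figure D4:**
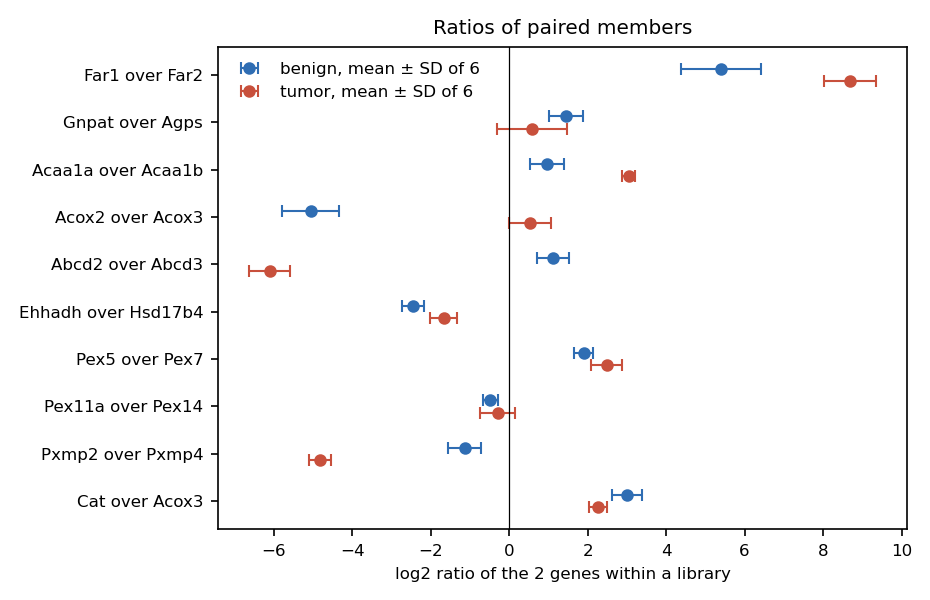
Log2 ratio of the genes of each pair within a library (x axis), as the mean ± SD of 6 benign and 6 tumor samples, for 10 pairs of members (y axis). The ratios of Acox2 to Acox3 and of Abcd2 to Abcd3 differ by 5.59 and -7.22 between the groups, and that of Pex11a to Pex14 by 0.18.

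Most of the members tested were highest in the same benign library, and whether members varied together was not tested. Benign sample 4 was the highest benign library for 24 of the 34 members tested (70.6%), against 19.1% of all genes tested. Benign sample 6 was highest for 7 members (20.6%), near its share of 18.9% of all genes. The median difference of the members from their benign mean was 0.52 on the log2 scale in benign sample 4 and 0.27 in benign sample 6, and between -0.27 and -0.17 in the others. These were the libraries with the highest white and brown adipocyte marker sums. Benign sample 3, which shared the muscle markers but not the brown adipocyte level, had a median difference of -0.25. The coefficient of variation was larger in benign tissue than in tumors for 24 of 34 members (70.6%), against 55.9% of all genes tested. Among tumors, tumor 1 was highest for 11 members (32.4%, against 18.4% of all genes), tumor 2 was lowest for 12 (35.3%, against 17.9%), and tumor 5 was highest for 10 (29.4%), near its share of 26% of all genes.

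Counts that lead this account were computed again without these libraries. Leaving out benign samples 3, 4 and 6, 3 biogenesis genes were lower and 4 higher, the additional calls being Pex7 and Pex2 (log2 fold change 0.38, edgeR adjusted p = 0.026), and 8 of the other members were lower and 8 higher. The median log2 fold change became 0.031 for biogenesis genes and -0.19 for the other members, where the median over all genes was 0.00095 and 55.4% of genes were called. With the muscle marker score and Ucp1 added as covariates, 6 of the other members were called lower, namely Abcd2, Pxmp2, Acaa1b, Hsd17b4, Scp2 and Cat, where 48.7% of all genes were called. In that fit Gnpat (log2 fold change -0.38, edgeR adjusted p = 0.12), Hacl1 (-0.55, 0.18) and Phyh (-0.39, 0.47) were no longer called. White adipocyte markers did not overlap between the groups, so their level and the group cannot be told apart.

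**Figure D5:**
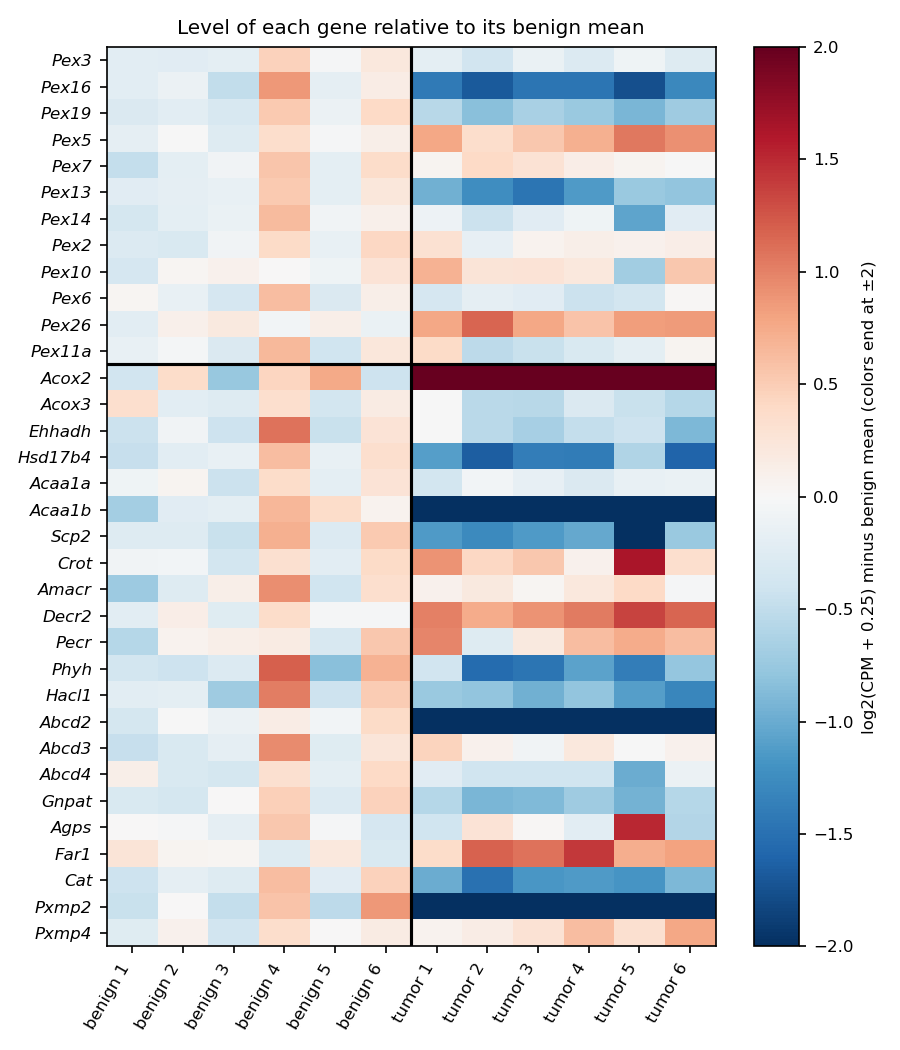
Level of the 34 members tested (rows, biogenesis genes above the black line) in each sample (columns) as log2(CPM + 0.25) minus the benign mean, red above and blue below it. Colors end at ±2, so the deeper falls of Abcd2, Pxmp2 and Acaa1b and the rise of Acox2 are cut off. Benign sample 4 is above its group's mean for most genes, and tumor 5 stands out for Agps, Crot and Scp2.

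Other genes of the organelle were read from a list of 56, of which 52 were in the table and 45 were tested. Of these, 22 were lower and 9 were higher (48.9% and 20%, against 34.8% and 28.1% of all genes), with a median log2 fold change of -0.32. Among the lower genes were Ephx2, an epoxide hydrolase (221 ± 141 against 36.1 ± 7.53 CPM, -2.61, edgeR adjusted p = 4.4e-05), Gstk1, a glutathione transferase (-2.49, edgeR adjusted p = 1.2e-05), and Nudt7, a coenzyme A diphosphatase (-1.85, edgeR adjusted p = 4.4e-05). Acsl4, an acyl-CoA synthetase that prefers arachidonate and is found on several membranes, rose from 35.4 ± 4.95 to 945 ± 383 CPM (log2 fold change 4.74, SE 0.28, edgeR adjusted p = 2.5e-08). Ddo, the D-aspartate oxidase (1.33, edgeR adjusted p = 0.0023), Acot6, a thioesterase (1.32, edgeR adjusted p = 0.00078), and Pex11g, a division gene related to Pex11a (0.71, edgeR adjusted p = 0.011), were also higher.

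Of 8 nuclear receptor and coactivator genes that control peroxisomal and fat metabolism, 5 were lower and 1 was higher. These are 62.5% and 12.5% of a short list, against 34.8% and 28.1% of all genes tested. Pparg, the receptor that drives adipocyte formation, ranged from 141 to 268 CPM in benign tissue and from 0.138 to 2.09 CPM in tumors (log2 fold change -7.43, SE 0.39, edgeR adjusted p = 1.2e-08). The coactivator Ppargc1b (-3.05, edgeR adjusted p = 8.9e-05) and the PPAR partners Rxra (-1.19, edgeR adjusted p = 8.6e-05) and Rxrg (-2.92, edgeR adjusted p = 0.036) fell as well, and so did Ppard (-0.37, edgeR adjusted p = 0.04). The call of Rxrg was lost without benign samples 3, 4 and 6 (-1.76, edgeR adjusted p = 0.32). The call of Ppard was lost without benign sample 2 (-0.30) or tumor 1, 2, 3 or 6 (-0.30 to -0.23). Ppargc1a, the relative of Ppargc1b, rose from 13.9 ± 10.7 to 38.1 ± 15.5 CPM, with 3 of 6 tumors above every benign sample (log2 fold change 1.46, SE 0.48, edgeR adjusted p = 0.02). Ppara, the receptor known for inducing peroxisomal enzymes in liver, had low levels in both groups, at 4.11 ± 3.97 and 2.36 ± 1.25 CPM, and was not called (-0.79, edgeR adjusted p = 0.28). It turned to 0.49 without benign samples 3, 4 and 6. Rxrb was not called (0.026, edgeR adjusted p = 0.85).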

How the data were processed

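Poly A RNA of 6 tumors and 6 benign mammary samples was sequenced by the authors in paired 50-base reads from directional libraries. The submitters' processing notes name Trim Galore, Salmon, DESeq2 and the build mm10, with versions not given in the sources used here. The authors deposited 1 table of estimated counts per gene as whole numbers, not scaled for depth. Whether counting used strand was not stated.

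Samples were grouped by their labels. Genes were filtered with filterByExpr of edgeR 4.0.16 (R 4.3.3; minimum count 10, minimum total 15), which kept 13191 of 16411 genes and 93.6% to 99.9% of a library's counts. They were scaled by TMM on those counts and compared by glmQLFit (robust) and glmQLFTest, two-sided, with Benjamini-Hochberg adjustment and the study's threshold of 0.1. The common biological coefficient of variation was 0.351. Log2 ratios used 2 added counts. The script was tested on simulated data. Alternatives were DESeq2 1.42.0, other scalings and filters, a replicate block, samples left out, and tissue scores as covariates.

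Replicates differed by more than sampling noise (smallest chi-square per degree of freedom 12.5 in benign tissue, 16.4 in tumors). The sources state that tumors and benign samples came from different mice, but not that each sample of a group had its own mouse, so p-values measure the spread between these samples. Replicate numbers did not pair samples: the groups came from different mice, and deviations of same-numbered samples correlated at -0.124 to 0.103.

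Positions and exon lengths are GENCODE's on GRCm38 (the mm10 assembly), promoters RefSeq's. The members and lists were chosen with earlier results of these data known. All members were described, with the spread over samples for the 4 lowest and 2 highest fold changes among biogenesis genes, the 6 lowest and 3 highest among the other members, the genes of each ratio, and members whose call changed when 1 sample was left out. The 4 lowest and 4 highest called genes of the wider list, and all regulators, were also named, except 1 gene that is not reported here. Protein targeting signals were not analysed here.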

Additional observations from a re-analysis of the deposited data

Results flagged for a closer look

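On the log2 CPM scale, tumor 5 was set apart from the other 5 tumors for 4 of the members, by a gap to its nearest neighbour that took up more of the group's range than Dixon's limit for 6 samples allows. For Acox2, the branched-chain oxidase, tumor 5 stood high at 129 CPM, with the nearest tumor at 63.8 CPM. It stood low for Pex14, of the docking complex, at 28.4 CPM (nearest 44.3 CPM), for Pex10, a ubiquitin ligase of receptor recycling, at 11.1 CPM (nearest 20.9 CPM), and for Abcd4, the lysosomal transporter, at 11.1 CPM (nearest 16.8 CPM). On the CPM scale itself, a comparison chosen after seeing the data, 8 values were set apart: Acox2 (129 CPM) and Agps (216 CPM) in tumor 5, Pex16, Ehhadh, Abcd3 and Agps in benign sample 4, and the few counts of Far2 in benign sample 5 and tumor 3. Pex14, Pex10 and Abcd4 in tumor 5 were not among them. In all, 70 sets of 6 values were examined, and chance alone sets apart about 1 in 20.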

How the results depend on the processing

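Of the counts of called genes, the following moved by more than 1.5 times. Biogenesis genes higher in tumors numbered 4 in place of 2 without benign samples 3, 4 and 6, 4 without benign samples 4 and 6, and 4 with the muscle score and Ucp1 as covariates. With these covariates, enzyme, transporter and membrane protein genes lower in tumors numbered 6 in place of 12, other peroxisome genes lower 13 in place of 22, and regulators lower 3 in place of 5, while calls over all genes went from 62.9% to 48.7%. Regulators lower also numbered 3 without benign samples 3, 4 and 6, and 2 where 10 counts in every sample were required. That filter left Pparg, Ppargc1b and Rxrg untested, as each had under 10 counts in some tumors. Biogenesis genes lower numbered 3 in every setting that kept all samples or left out several. With 1 sample left out, biogenesis genes numbered 2 to 3 higher and 3 to 4 lower, and the other members 4 to 6 higher (4 without benign sample 3) and 9 to 13 lower. The log2 fold change turned for Pex11a (0.089 without benign samples 3, 4 and 6, 0.12 without benign samples 4 and 6, 0.093 with covariates), for Pex3 (0.042 with covariates), for Acaa1a (0.0032 without benign samples 4 and 6) and for Ppara (0.49, 0.44 and 0.95 in the same 3 settings). With 1 sample left out it ranged from -0.012 to 0.30 for Abcd3, from -0.11 to 0.47 for Agps, from -0.031 to 0.30 for Amacr and from -0.012 to 0.12 for Rxrb; none of these was called with all samples. The cause was not tested. With a replicate block (same-numbered samples paired), 2 biogenesis genes were higher and 3 lower, and 5 of the other members were higher and 11 lower. In that fit 58.3% of all genes were called. Ehhadh lost its call there (-0.50, edgeR adjusted p = 0.15), as did Pecr (0.48, 0.17). Depth limits Far2 and the tumor levels of Abcd2, which rest on at most 4 and 25 counts a library.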
